A study of Populus davidiana with 6 samples.

Results

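A set of 66 leaf loci of the Korean aspen Populus davidiana was already well expressed in control plants and stood at least 2 times higher in every air-dried library than in any control library. The members were chosen by that contrast. FPKM (fragments per kilobase of transcript, scaled to the fragments mapped in the library) were summed over all transcripts of a locus, and a locus was kept if at least 1 of its transcripts carried a Populus annotation name, if it spanned 500 to 8000 bases of genome, if it reached at least 15 FPKM in all 3 control libraries with a control mean under 300 FPKM, and if its lowest air-dried value was at least 2 times its highest control value. Of 40537 loci in all, 38775 carried an annotation name, 32369 of these had the required span, 6779 of those reached the control minimum and 6492 also stayed under the control ceiling. The 66 members are 1.02% of these 6492 eligible loci, the other 6426 having missed the 2-fold line. Because the rule used the air-dried and control values, these values are given as a description with no test.

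The control group was 3 leaf libraries and the treated group 3 leaf libraries of cultivar Palgong2, a single cultivar labelled drought tolerant. All plants were propagated by internode culture, grown in vitro at 23 °C with 16 h of light on a medium with 3% sucrose and naphthalene acetic acid, a synthetic auxin, and were used at about 6 weeks of age. Treated plants were pulled out of the medium, rinsed and kept in air for about 10 min. The labels do not say whether control plants were pulled out and rinsed too, so handling, rinsing and drying cannot be told apart. The labels speak of triplicate leaf samples without naming separate plants. They name no plant that was sampled in both groups. Values given below as before and after drying are those of control and of air-dried leaves. No transgene or mutant was involved.

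A leaf that loses water faster than it takes it up loses turgor, and the plant answers with abscisic acid, a hormone that closes the stomata, and with new transcription. Among the earliest genes to respond to water loss, touch or wounding in Arabidopsis are many that encode transcription factors and parts of calcium, jasmonate and kinase signalling. Genes that respond quickly to stress have been described, in Arabidopsis among other species, as compact and poor in introns. No locus is paired with a gene name or product in the files, so none of these functions can be assigned to a member here, and the leaf identity of the samples could not be checked against marker genes. The members are therefore given by position, and no source used here names the genome build. The build and its annotation need not be those of P. davidiana. Positions, spans, distances and transcript models may therefore differ from those in this species.

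The members were moderate in level in control leaves and abundant in air-dried leaves. Their control means ran from 15.7 to 141 FPKM with a median of 27.5, beside a median of 33.2 FPKM for the eligible loci that missed the line. In air-dried leaves the member means ran from 43.0 to 1035 FPKM with a median of 110 FPKM, beside a median of 35.3 and an upper quartile of 63.0 FPKM for the other eligible loci. The ratio of the air-dried to the control mean ran from 2.13 to 12.9 with a median of 3.06, and the quartiles were 2.54 and 4.04. The same ratio had a median of 1.04 over the eligible loci that missed the line. In leaf tissue, more RNA per cell and more cells of a type that holds the RNA cannot be told apart.

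**Figure D1:**
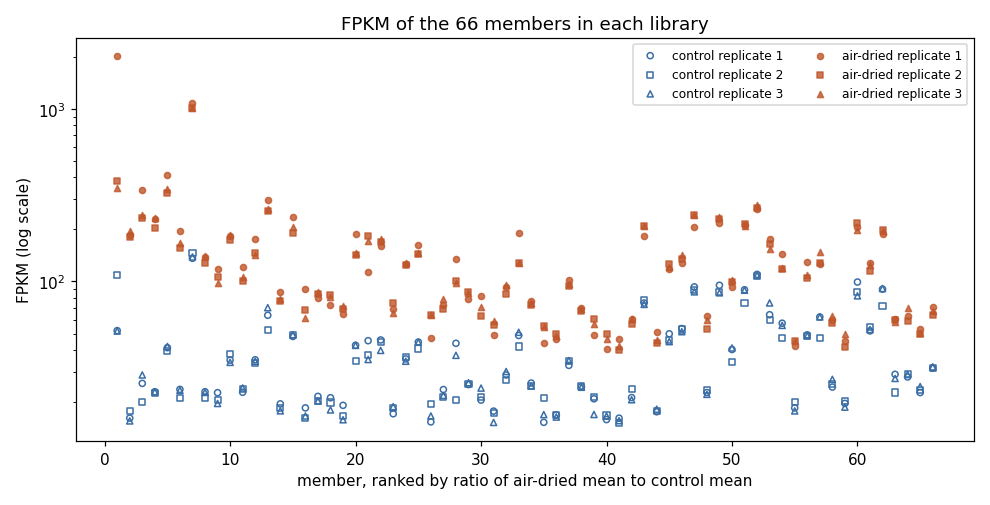
FPKM on a log axis for each of the 66 members in each of the 6 libraries, ordered by the ratio of the group means, with open blue symbols for the 3 control libraries and filled orange symbols for the 3 air-dried libraries. The orange symbols lie above the blue ones at every member, as the rule requires, and air-dried replicate 1 stands far above the other air-dried libraries at the first member.

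Most members rose by less than 4 times. The ratio of means lay under 3 for 33 members and between 3 and 4 for another 15. It lay between 4 and 6 for 10 members, between 6 and 9 for 4 members and above 9 for 4 members. The size of the ratio did not follow the control level in a simple way. The 16 members with control means under 20 FPKM had a median ratio of 3.06, the 19 between 20 and 30 FPKM a median of 3.26, the 20 between 30 and 60 FPKM a median of 3.21, and the 10 between 60 and 120 FPKM a median of 2.53. A single member started above 120 FPKM.

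The locus with the highest ratio of means owed its place to 1 library. It lies on the plus strand of chromosome 17 at 798970 to 802712 and was measured by 1 assembled transcript with no annotated transcript. Its control values were 52.0, 109 and 51.7 FPKM, and its air-dried values were 2012, 380 and 348 FPKM. The groups did not overlap, but air-dried replicate 1 was 5.53 times the mean of the other air-dried libraries, which were close to each other. Without that library the ratio was 5.14 in place of 12.9 and the locus ranked 8 in place of 1 among the members. The summed FPKM of the 66 members in that library was 11253, beside 9065 and 9221 in air-dried replicates 2 and 3.

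Next came 4 loci, each with 1 annotated transcript, that rose by 8.78 to 11.4 times with closer replicates. POPTR_0001s15400 (chromosome 1, 12224379 to 12225678, plus strand) stood at 16.2, 17.8 and 15.6 FPKM in control leaves and at 186, 181 and 197 FPKM in air-dried leaves. Its ratio of means was 11.4, and its lowest air-dried value was 10.2 times its highest control value, the widest gap of all members. POPTR_0001s42270 (chromosome 1, 42026076 to 42026871, plus strand) was at 25.7, 20.2 and 28.8 FPKM before and at 338, 234 and 241 FPKM after drying. Air-dried replicate 1 was again the highest there, and the ratio of means was 10.9 with it and 9.55 without it.

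Both other loci of this group were steady among control libraries. On chromosome 8 at 4193238 to 4196483, on the plus strand, the control values were 23.0, 22.7 and 23.0 FPKM and the air-dried values were 230, 204 and 232 FPKM, a ratio of 9.70. On chromosome 3 at 14941797 to 14943066, on the plus strand, FPKM went from 41.4, 39.7 and 42.1 to 411, 326 and 344, a ratio of 8.78. Groups were far apart at both loci, and air-dried replicate 2 was the lowest treated library at both.

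The most abundant member was a locus on scaffold_393 at 11083 to 13025, on the plus strand. Its control values were 136, 147 and 139 FPKM and its air-dried values 1083, 1014 and 1008 FPKM. All 3 air-dried libraries lay within a narrow range, and the mean went from 141 ± 5.60 to 1035 ± 42.0 FPKM (SD, n = 3 per group). The increase of 895 FPKM was 12.3% of the summed increase of 7284 FPKM over the 66 members. Together with the locus on chromosome 17 it made up 23.8% of that sum, and the 10 members with the largest increases made up 46.1%.

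A further 4 loci among the 10 highest ratios rose by 5.06 to 7.57 times. On chromosome 15 at 419084 to 419688, on the plus strand, FPKM were 23.7, 21.1 and 23.5 in control leaves and 195, 156 and 167 in air-dried leaves. On chromosome 8 at 1419680 to 1420573, on the plus strand, they were 23.0, 21.3 and 22.8 before and 138, 128 and 140 after. These short loci had ratios of 7.57 and 6.06. On chromosome 10 at 10551687 to 10554183, on the plus strand, the values went from 22.7, 20.5 and 19.7 to 118, 106 and 98.6 FPKM, a ratio of 5.13. On chromosome 10 at 3331846 to 3333965, on the plus strand, they went from 35.1, 38.2 and 34.0 to 183, 173 and 186 FPKM, a ratio of 5.06. All 10 of the highest-ranked members lay on the plus strand, whereas 31 of the 66 members did, a pattern seen after the values and not tested.

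Another 2 loci are given for their level or their transcripts. On the minus strand of chromosome 13 at 1112945 to 1114097, among the 5 most abundant members after drying, FPKM went from 63.8, 52.2 and 70.5 to 298, 256 and 263, a ratio of 4.38. On the minus strand of chromosome 12 at 1751037 to 1755062, a locus with 8 transcripts, they went from 22.8, 23.9 and 24.2 to 122, 101 and 106, a ratio of 4.63. At both, air-dried replicate 1 was the highest library.

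The members closest to the line showed smaller rises and, by the rule, the narrowest gaps between the groups. Just inside it were loci on chromosome 12 at 5051732 to 5053787, chromosome 6 at 20976642 to 20982823 and chromosome 4 at 15424932 to 15428944, whose lowest air-dried value was 2.00, 2.01 and 2.01 times their highest control value. The locus on chromosome 4 was at 31.5, 31.7 and 32.1 FPKM in control leaves and at 70.9, 64.4 and 67.8 FPKM in air-dried leaves. Just outside the line were loci on chromosome 5 at 24972249 to 24978701 and 5990403 to 5992042 and on chromosome 16 at 2296072 to 2297152, with 1.99, 1.98 and 1.96 times. The last of these was at 44.8, 37.7 and 43.0 FPKM before and 87.9, 88.5 and 91.0 FPKM after, a ratio of means of 2.13, close to the lowest ratio among the members. The values run on across the line without a gap.

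The rule asks more than a doubled mean. The ratio of means was at least 2 at 113 eligible loci, of which 66 were members and 47 were not. Of these 47 loci, 14 had overlapping groups, and 24 had a lowest air-dried value at least 1.7 times the highest control value. Air-dried replicate 1 was over 2 times both other air-dried libraries at 10 of the 47, and at 1 of the 66 members, the locus on chromosome 17. The clearest case among the 47 is a locus on chromosome 14 at 3675680 to 3677522, chosen after its values were seen, with 40.3, 16.7 and 56.2 FPKM in control libraries and 1541, 0 and 97.3 FPKM in air-dried libraries. Its ratio of means of 14.5 exceeds that of every member and rests on 1 library.

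**Figure D2:**
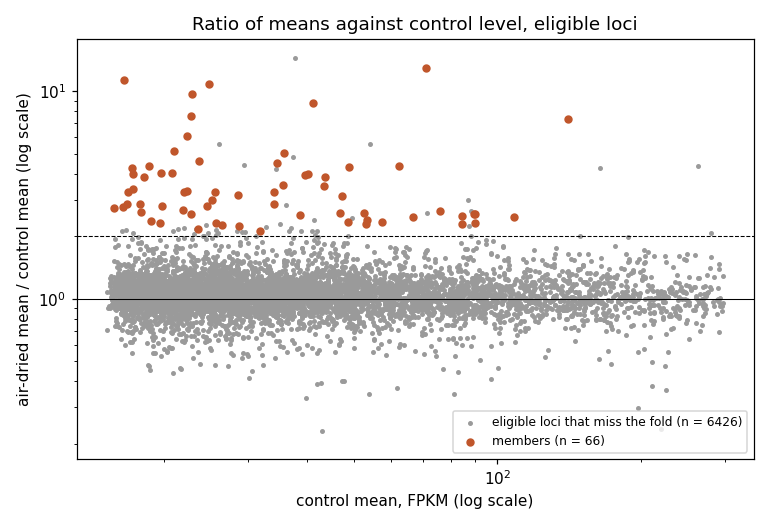
Ratio of the air-dried to the control mean against the control mean, both on log axes, for the 66 members (orange) and the 6426 eligible loci that missed the line (grey). The solid line marks equal means and the dashed line a ratio of 2, above which 113 loci lie, and the members thin out at high control levels.

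Changes of this size went mostly upwards among well-expressed loci. While 66 eligible loci had their lowest air-dried value at least 2 times their highest control value, 7 had their lowest control value at least 2 times their highest air-dried value. The number lowered was 11 without control replicate 1, 18 without control replicate 2 and 17 without air-dried replicate 1, where 72, 78 and 70 loci were raised. At 3 times the numbers were 25 and 1, and at 4 times they were 11 and 0. At 1.5 times they were 139 and 67, so that falls were a larger part of the changes once smaller ones were counted too. Every air-dried value lay above every control value at 1644 of the 6492 eligible loci, or 25.3%, a group that contains the members by definition. Every air-dried value lay below every control value at 911 loci, or 14.0%. These counts are of the deposited values and were not redone after scaling. Median-of-ratios scaling divided control libraries by 0.974 to 0.976 and air-dried libraries by 0.992 to 1.08. The part of scale in the excess of rises was not tested.

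The number of members depended on how libraries were put on one scale. After median-of-ratios scaling the rule found 54 loci, 53 of them among the 66, and after quantile normalization it found 43, of which 40 were members. Loci lowered by the same measure numbered 15 and 21 under these scalings. The median log2 change of all tested loci moved from 0.07 in the deposited values to 0.00 and -0.05 under these scalings. The lowest log2 change of any member was 1.07 in the deposited values, and it was 0.99 and 0.90 under the scalings.

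The share of loci past the line was lower at higher control levels. Among annotated loci with the same limits on span, taken by control mean, 130 of 4844 loci from 1 to 5 FPKM (2.68%) stood at least 2 times higher by the same comparison of nearest libraries, as did 76 of 5955 from 5 to 15 FPKM (1.28%). The shares were 1.13% from 15 to 30 FPKM, 0.993% from 30 to 60, 0.993% from 60 to 120, and 0.174%, or 1 of 575, from 120 to 300 FPKM. Above 300 FPKM none of 288 loci passed. The median ratio of those that passed was 3.96 from 1 to 5 FPKM and 3.18 from 15 to 30 FPKM.

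Replicates of the members were close, which the rule favours. The coefficient of variation among control libraries had a median of 5.30% over the members and 6.80% over the other eligible loci, and it was under 10% at 51 of the 66 members. Among air-dried libraries it had medians of 6.66% and 7.85%, and it was under 10% at 47 members. The widest spread was at the locus on chromosome 17, with 46.4% in control and 104% in air-dried libraries. The tightest air-dried values, 1.77%, were found on chromosome 8 at 3507908 to 3509993, where they were 125, 124 and 129 FPKM after 35.6, 36.5 and 34.5 FPKM in control leaves. That locus was chosen after its values were seen.

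The order of the air-dried libraries differed between members with large and small rises. Air-dried replicate 1 was the highest air-dried library at 30 of the 66 members (45.5%) and at 51.5% of the other eligible loci, and it was the lowest at 22 members (33.3%) and 30.9% of the others. Among the 33 members with ratios under 3 it was the highest at 13 and the lowest at 14, and its median relative to the mean of the other air-dried libraries was 0.99. Among the 10 members with ratios between 4 and 6 it was the highest at 7, with a median of 1.15, and among the 8 members above 6 it was the highest at 5 and the lowest at none. A high value in 1 library raises the ratio that sorts the members, so this order is not separate from the ratio. At 51 of the 66 members replicate 1 lay within 0.8 to 1.2 times the mean of the others.

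Apart from the locus on chromosome 17, the extremes of this library lay in both directions. On chromosome 4 at 16139178 to 16146934, on the minus strand, air-dried replicate 1 was the lowest with 113 FPKM, beside 183 and 171 FPKM in replicates 2 and 3, after 45.4, 37.7 and 35.3 FPKM in control leaves. On chromosome 6 at 1965113 to 1966514, on the plus strand, it was the highest with 190 FPKM, beside 127 and 127 FPKM, after 48.7, 42.1 and 50.8 FPKM. These 2 loci, chosen after their values were seen, had the lowest and the second highest share of replicate 1 to the other air-dried libraries among the members, 0.64 and 1.498. The part of this library's other differences in these values was not tested.

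Members were compact loci with simple transcript models. Their genomic span, introns included, had a median of 1900 bases, against 3515 bases for the eligible loci that missed the line and 3518 bases for all tested loci. Spans over 1000 and up to 2000 bases made up 45.5% of members and 14.1% of the other eligible loci, and spans over 4000 bases made up 9.09% and 40.4%. Spans up to 1000 bases made up 9.09% of members and 3.59% of the other eligible loci. They made up 10.8% of all tested loci, for which span was not limited. The shortest member spanned 598 bases, on chromosome 14 at 1746256 to 1746853, and the longest 7757 bases, the locus on chromosome 4 with the low replicate 1. That loci which rose in these data were often short was known when the members were chosen, so this is a description and not an independent result.

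**Figure D3:**
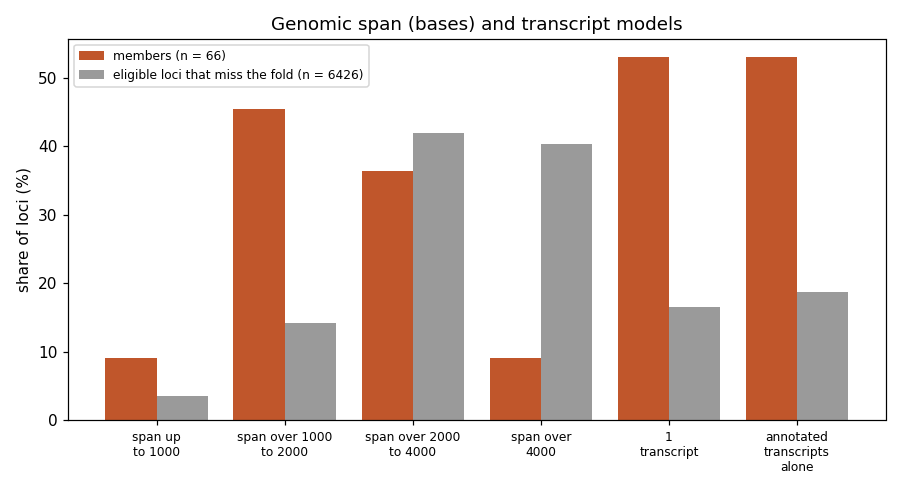
Share of loci (bars from 0, in percent) in 4 classes of genomic span, with 1 transcript, and with annotated transcripts alone, for the 66 members (orange) and the 6426 eligible loci that missed the line (grey). Members exceed the others at spans up to 2000 bases and in both transcript classes, and fall below them at spans over 4000 bases.

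Transcript number followed the same pattern. A single transcript was listed at 35 of 66 members (53.0%), at 16.5% of the other eligible loci and at 26.5% of all tested loci. Annotated transcripts alone were listed at 35 members (53.0%), against 18.7% of the other eligible loci. The members held 71 annotated and 58 assembled transcripts, and annotated ones carried 71.4% of the summed increase in FPKM. Members without any annotated transcript were the loci on chromosome 17 and on chromosome 12 at 5051732 to 5053787. Each was measured by 1 assembled transcript that met the rule by carrying, with a suffix, the name of an annotated transcript on the opposite strand. Span and transcript number are linked traits and were not separated.

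At the 31 members with more than 1 transcript, transcripts were compared if they had at least 1 FPKM on average in control leaves. At 12 loci a single transcript did, and it nearly had to double for the locus to be a member. At the other 19 loci, 36 of 46 such transcripts had a ratio of means of at least 2, and at 10 of these loci all of them did. The locus total had to double there too, which favours doubled transcripts. The share of locus FPKM held by annotated transcripts overlapped between the groups at 25 loci. It did not overlap at 6, beside 9.66% of the 5395 eligible loci with more than 1 transcript, members included. At 4 of the 6 the means differed by more than 1 percentage point, as they did without overlap at 7.95% of the same eligible loci. These differences from the background were not tested. FPKM of overlapping transcripts are estimated jointly from shared reads, which limits how far such shares can be read.

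**Figure D4:**
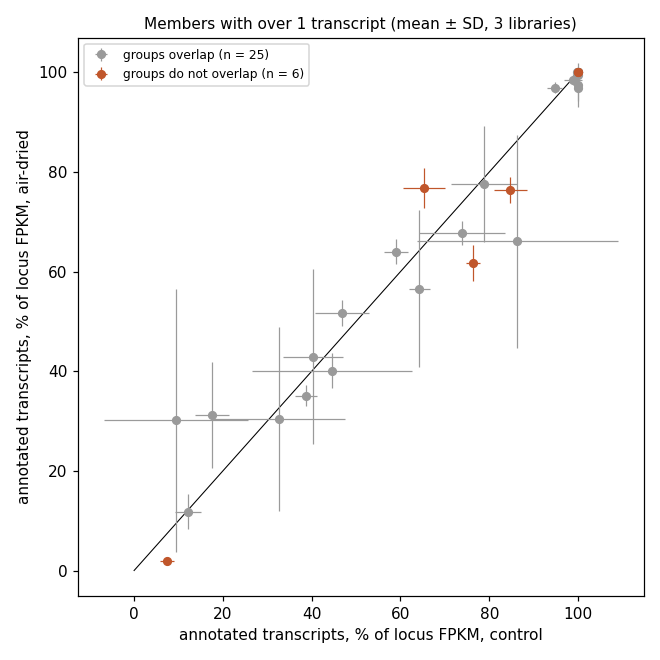
Annotated transcripts' share of locus FPKM in control (x axis) and air-dried libraries (y axis), in percent, for the 31 members with more than 1 transcript, with means and SD bars over 3 libraries per group. Most points lie near the line of equal shares, and 6 loci whose groups do not overlap are orange, 2 of them at nearly 100% in both groups.

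These 4 loci moved in both directions and were singled out after their values were seen. On chromosome 4 at 16139178 to 16146934 the annotated transcript held 5.75%, 9.11% and 7.38% of locus FPKM in control libraries and 2.76%, 1.497% and 1.74% in air-dried libraries. That locus rose through its assembled transcript, whose ratio of means was 4.18 beside 1.02 for the annotated one. On the minus strand of chromosome 5 at 25375702 to 25377714 the annotated share went from 76.4% ± 1.56 to 61.7% ± 3.65 (SD, n = 3 per group), and on chromosome 16 at 3396455 to 3398498 from 84.8% ± 3.69 to 76.3% ± 2.60 (SD, n = 3). On chromosome 14 at 6484729 to 6486693 it went up, from 65.4% ± 4.74 to 76.8% ± 3.95 (SD, n = 3).

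Assembled transcripts held over 50% of the FPKM at 9 members with several transcripts. The most abundant of these was the locus on scaffold_393, where annotated and assembled transcripts rose together. The annotated share there was 36.0%, 39.3% and 40.9% in control libraries and 32.6%, 36.7% and 36.0% in air-dried libraries, and the groups overlapped. At 1 member, on chromosome 1 at 10897354 to 10898912, a transcript with at least 1 FPKM in control leaves went to 0.69 times its control mean while the locus total went from 57.3 ± 8.74 to 134 ± 12.5 FPKM (SD, n = 3 per group). Transcript shares at that locus varied widely within groups. The annotated share was 27.9%, 20.8% and 49.4% in control libraries and 51.6%, 21.4% and 18.3% in air-dried libraries, and the groups overlapped. On chromosome 12 at 1751037 to 1755062 the annotated share was 63.7%, 28.0% and 42.1% in control libraries, a spread wider than any difference between the groups there.

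Members were found on 18 of the 19 numbered chromosomes and on 1 scaffold. Chromosomes 1 and 2 held 8 each, chromosome 6 held 7 and chromosome 8 held 6. Among numbered chromosomes, the share of eligible loci ran from 0 of 178 on chromosome 11 to 2.11%, or 5 of 237, on chromosome 18, beside 1.02% in all. The scaffold held 1 eligible locus, which was the member. Of the 66 members, 31 lay on the plus and 35 on the minus strand.

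The gap between members was under 100000 bases in 2 cases. No such count was made for other sets of loci of this size, so the number describes these members alone. On chromosome 18, loci at 11743893 to 11746187 on the minus strand and 11773733 to 11775629 on the plus strand were 27545 bases apart, with 3 tested loci between them. They went from 20.8 ± 0.727 to 84.2 ± 3.23 FPKM and from 22.1 ± 1.87 to 72.0 ± 9.53 FPKM (SD, n = 3 per group). On chromosome 6, loci at 22535019 to 22536673 on the minus strand and 22575842 to 22577336 on the plus strand were 39168 bases apart, also with 3 tested loci between them. They went from 24.6 ± 0.199 to 69.1 ± 1.26 FPKM and from 16.8 ± 1.34 to 54.7 ± 5.35 FPKM (SD, n = 3 per group). In each pair, 1 of the 3 loci in between was called higher by limma (moderated test on the log2(FPKM + 1) scale, two-sided, adjusted over all 22729 tested loci by Benjamini-Hochberg, threshold 0.05), as were 7.28% of all tested loci. On chromosome 6 this was the locus at 22539542 to 22540208. Its call was lost without any 1 library other than air-dried replicate 1, as given below.

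The rule did not use the loci beside the members, so these could be tested. The nearest tested locus on each side that was no member and overlapped none gave 130 loci, at a median distance of 8785 bases. Of these, 14 were called higher (10.8%) and 4 lower (3.08%) by the same limma test, against 7.28% and 2.81% of all 22729 tested loci. Their median log2 change was 0.07, as was that of all tested loci. None of the 12 neighbours within 2000 bases was called in either direction, 6 of 61 were called higher at over 2000 and up to 10000 bases, and 8 of 57 beyond that. The number called higher fell to 6, 7 and 6 without control replicates 1, 2 and 3 and to 7 and 5 without air-dried replicates 2 and 3, when 3.50% to 4.48% of all tested loci were called higher, and it was 9 and 8 after median-of-ratios scaling and quantile normalization. With the replicate number as a block it was 6, beside 3.31% of all tested loci. Without air-dried replicate 1 it was 14 (10.8%) beside 6.38% of all tested loci, and without transcripts under 500 bases it was 20 (15.4%) beside 9.32%. The neighbours' share was above that of all tested loci in all 17 settings, many of which share libraries, and the difference between the shares was not tested.

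**Figure D5:**
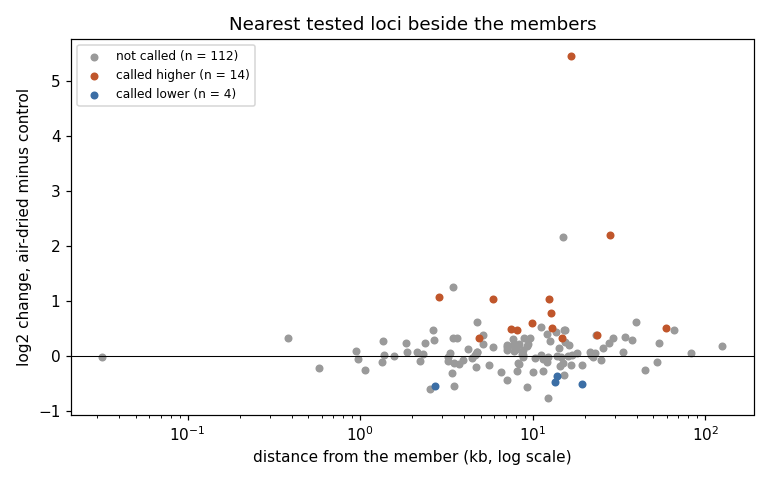
Log2 change (air-dried minus control, on the log2(FPKM + 1) scale) of the 130 nearest tested loci beside the members against their distance from the member in kb on a log axis. Most points lie near 0 at every distance, and 14 loci called higher (orange) and 4 called lower (blue) stand beside 112 that were not called.

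Among these neighbours, the 5 with the largest log2 changes were mixed in kind. Those on chromosomes 5, 17 and 8 each spanned under 500 bases. They were not tested once transcripts under 500 bases were left out. The clearest was a locus 27921 bases from its member (chromosome 1, 44552374 to 44555587). It went from 6.92, 6.11 and 5.78 FPKM in control leaves to 34.7, 28.3 and 34.2 FPKM in air-dried leaves, a log2 change of 2.20 ± 0.11 (standard error; limma, adjusted p = 0.000229). A locus of unassigned strand on chromosome 6 at 22539542 to 22540208 went from 1.59, 1.24 and 1.94 to 3.14, 4.70 and 5.73 FPKM (limma, adjusted p = 0.0286). A locus of unassigned strand (chromosome 5, 20597975 to 20598130) was at 147, 41.2 and 12.3 FPKM after drying and was listed at 0 in all 3 controls (limma, adjusted p = 0.0126).

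Both of the last calls were lost with fewer libraries, while the log2 change stayed positive. That on chromosome 6, with a log2 change of 1.07 over all libraries, was lost without any 1 library other than air-dried replicate 1 (limma, adjusted p between 0.0688 and 0.101; log2 change between 0.92 and 1.17) and with the replicate block (limma, adjusted p = 0.0585). That on chromosome 5 was lost without any 1 of the 3 controls, and also without air-dried replicate 2 (limma, adjusted p between 0.0509 and 0.0568). Its log2 change was then 5.45 to 5.47, beside 5.45 over all libraries.

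The other two of these neighbours were not called. On chromosome 17 at 783549 to 783896, 15073 bases from the locus with the highest ratio, FPKM were 1839, 3948 and 1408 in control and 33895, 7514 and 3591 in air-dried libraries (limma, adjusted p = 0.185). Control replicate 2 and air-dried replicate 1 were the highest libraries of their groups there, as they were at the member itself. On chromosome 8 at 13716997 to 13717183, a locus of unassigned strand, the values were 60.7, 22.9 and 42.8 FPKM and 469, 41.8 and 42.8 FPKM (limma, adjusted p = 0.485).

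At 61 of the 66 members no other locus overlapped the span. Of the other 5, the locus on chromosome 17 lay almost wholly within a locus on the opposite strand that was listed at 0 in control leaves and averaged 0.983 FPKM after drying. The locus on chromosome 12 at 5051732 to 5053787 lay within a locus on the opposite strand, at 5050512 to 5054139, that went from 25.7 ± 1.23 to 52.1 ± 5.35 FPKM (SD, n = 3 per group), a ratio of means of 2.03. No source used here says whether the libraries kept strand, so the reads of such pairs may be divided wrongly. On chromosome 7 at 10439962 to 10442687 the member overlapped 574 bases of a locus on the opposite strand that went from 70.8 to 68.2 FPKM on average, while the member went from 19.8 ± 2.47 to 55.4 ± 6.17 FPKM (SD, n = 3 per group). The member on chromosome 16 at 4428224 to 4434901 went from 22.0 ± 1.702 to 59.1 ± 2.22 FPKM (SD, n = 3 per group) and overlapped 2 opposite-strand loci that were both called higher, with means of 14.5 and 38.9 FPKM and of 14.5 and 20.6 FPKM before and after drying. The member on chromosome 4 at 16139178 to 16146934 overlapped a locus on the opposite strand that averaged under 1 FPKM in both groups.

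Across the 22729 tested loci, Pearson correlations of log2(FPKM + 1) lay at 0.950 to 0.958 within controls, at 0.893 to 0.966 within the treated group and at 0.878 to 0.938 across the groups, computed across loci, which are not independent replicates. Absolute depth is unknown, since the files hold no counts. Depth relative to control replicate 1, read from the steps of the lowest values, was 0.908 to 1.01. Between 75 and 113 of the 130 to 159 loci compared per library fell in one step, within 0.1 log2 units.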

How the data were processed

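Leaf poly(A) RNA was read as 100 bp paired ends from TruSeq libraries, per the labels' protocols. FastQC, TopHat and Cufflinks were used, without versions, per the submitters' processing notes. The deposited files hold FPKM per transcript, by the authors' processing, in 6 files that list the same 112919 transcripts (45773 annotated, 67146 assembled). They give locus names but no gene symbol or product.

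FPKM were summed per locus. The groups were set against each other in limma 3.58.1 (R 4.3.3), letting the prior variance follow the mean level, on log2(FPKM + 1) of the 22729 loci that reached 1 FPKM in 3 or more of the 6 libraries, and p-values were adjusted by Benjamini-Hochberg. The fit was tested on simulated data, and the rule was checked on a small made-up set of loci with known answers. Members and comparisons were chosen with earlier results of these data known. The labels do not say that replicates came from separate plants, so p-values reflect the spread among these libraries alone, and that may be technical.

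Named were the 10 members with the highest ratios, the 5 with the highest air-dried means, 3 loci on each side of the line, 3 with mostly assembled transcripts and the 5 neighbours with the largest log2 changes, and others as stated. Gene lists, promoter motifs and sequences planned for loci with products were not used here, for want of names and a genome. Figures were drawn with matplotlib 3.10.9.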

Additional observations from a re-analysis of the deposited data

How the results depend on the processing

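Leaving out a library can add members but cannot remove one by the fold, since it relaxes the comparison of nearest libraries. The rule found 43 loci after quantile normalization, 139 with a fold of 1.5, 25 with a fold of 3 and 30 with a control minimum of 30 FPKM, and 69 to 78 when 1 library was left out. The median ratio over the loci found was 3.18 after median-of-ratios scaling, 3.46 after quantile normalization, 3.09 with annotated transcripts alone, 2.23 and 4.38 with folds of 1.5 and 3, 3.11 and 2.63 with control minima of 10 and 30 FPKM, and 2.87 to 2.98 when 1 library was left out, each over its own set of loci. The median over the members of the FPKM relative to the control mean was 2.94, 2.96 and 2.93 in air-dried replicates 1, 2 and 3, an SD of 0.0157. The rule asked for a doubling in each of these libraries, so this SD is no measure of the uncertainty of the median ratio.

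Calls over all tested loci moved more. Of 1655 higher and 638 lower calls, rises were 72.2%, and they were 56.1% after median-of-ratios scaling (1031 lower) and 45.5% after quantile normalization (996 higher, 1191 lower). Library weights gave 4326 higher and 2108 lower, and 1 library left out gave 795 to 1449 higher and 231 to 688 lower. Neighbours called higher numbered 9 after median-of-ratios scaling, 8 after quantile normalization, 32 with library weights and 5 to 14 when 1 library was left out. The cause was not tested. With the replicate number as a block there were 753 higher and 175 lower calls and 6 neighbours called higher. Deviations of same-numbered libraries had correlations of 0.0930, 0.187 and -0.124 across loci, beside -0.232 to 0.161 for differently numbered ones. The highest was that of the replicates numbered 2, but all were low. The numbers are therefore not taken to pair samples, though 3 libraries per group cannot settle this. FPKM without counts limit what can be said of depth.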
